A study of Mus musculus with 10 samples.

Results

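The 6 genes described here are known mainly for their transcription in red cell precursors, and were read in the livers of 10 mice to follow how much red cell RNA each liver library held. Hba-a1 and Hba-a2 encode the adult alpha chain of haemoglobin, and Hbb-bs and Hbb-bt encode its adult beta chain. Alas2 encodes the erythroid aminolevulinate synthase, which starts haem synthesis in red cell precursors, and Slc4a1 encodes band 3, the anion exchanger of the red cell membrane. The members were named by gene and looked up among the 54532 genes of the deposited FPKM table (a level per gene length and library depth). All 6 were found, and 5 of them passed the filter on low values that 13306 genes passed.

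The mice had a C57BL/6J background. ASK1f/f mice (control littermates, n = 5) were homozygous for a murine ASK1 cDNA in the ROSA26 locus behind a lox-stop-lox cassette. ASK1+hep mice (n = 5) carried this construct and Alb-Cre, whose albumin promoter drives recombination in hepatocytes. All 10 mice were fed a high fat diet (HFD) for 7 weeks from 6 weeks of age and were fasted for 5 h before the liver was taken. RNA came from whole liver, so transcripts of red cells, hepatocytes and other liver cells were read together. Transcripts of the 6 genes from red cells cannot be told apart from any made by other liver cells. More red cells in a liver cannot be told apart from more RNA per red cell. Whether these livers were flushed of blood is not stated in the sources used here. The comparison asked whether the transcripts of the 6 genes differed between libraries and between the genotypes.

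Haemoglobin is a tetramer of alpha and beta chains, each holding haem. Mature mouse red cells have no nucleus and keep only leftover RNA, most of it from globin genes, whereas reticulocytes, the youngest circulating red cells, still hold abundant globin RNA. In the fetus the liver is a site of red cell formation, while in the adult this takes place mainly in bone marrow and spleen. Adult hepatocytes make their own haem with Alas1, the housekeeping counterpart of Alas2, and the liver takes up free haemoglobin and haem from blood.

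The libraries held 13367742 to 16163378 reads on genes. ASK1 is encoded by Map3k5, whose level was 4.71 to 6.88 FPKM in the first 4 libraries labelled ASK1f/f and 7.68 to 16.4 FPKM in the 5 labelled ASK1+hep. The library labelled ASK1f/f replicate 5 was at 19.8 FPKM, the highest of the 10, against its label. The libraries labelled ASK1+hep replicates 3 and 5 stood apart in base composition. The GC contrast of a library, which is the median log2 deviation of genes in the top GC quartile minus that of genes in the bottom quartile, was 0.32 in replicate 3 and -0.27 in replicate 5, and between -0.063 and 0.12 in the other 8 libraries. GC content and gene length accounted for 16.8% and 25.0% of the gene deviations in these 2 libraries and for 1.39 to 9.04% in the others. The fold changes of the globin genes are given below with and without each of these 3 libraries. Most other results are given with all 10 livers or without some of them.

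The alpha globin genes lie next to each other on the plus strand of chromosome 11 of GRCm38. Hba-a1 (ENSMUSG00000069919) runs from 32283511 to 32284465 and Hba-a2 (ENSMUSG00000069917) from 32296489 to 32297298. The beta globin genes lie on chromosome 7 (minus strand), with Hbb-bt (ENSMUSG00000073940) from 103812524 to 103813996 and Hbb-bs (ENSMUSG00000052305) from 103826534 to 103828096. Each globin gene has 3 exons. Alas2 (ENSMUSG00000025270) lies on the plus strand of chromosome X from 150547375 to 150570638 with 11 exons, and Slc4a1 (ENSMUSG00000006574) runs from 102348824 to 102366203 of chromosome 11 (minus strand) with 20 exons. The coding sequences of Hba-a1 and Hba-a2 had the same length of 426 bases and differed at 1 base, and those of Hbb-bs and Hbb-bt had 441 bases and differed at 1 base. Of the 100-base windows of the Hba-a1 transcript, 56.5% were also present in Hba-a2, and 74.5% the other way round. For Hbb-bs and Hbb-bt the shares were 62.6% and 54.8%. How reads that match both genes of a pair were counted is not given in the sources used here. They may have gone to either gene or to neither, so single levels, sums over a pair and ratios built on them are uncertain. Of the 2403 exonic bases of Alas2, 311 (12.9%) also lie in an exon of Apex2, a DNA repair gene on the opposite strand. The strand setting of the counting is not given in the sources used here, but Apex2 was at 1.13 to 1.80 FPKM, against 32.1 to 64.3 FPKM for Alas2.

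The sequences upstream of the globin genes and Alas2 are shown because red cell genes are known to share binding sites for GATA1 (GATAA), for KLF1 (CACCC) and, in globin genes, CCAAT and TATAA boxes. Promoters of 5 of the 6 members were matched in RefSeq (GRCm38.p6). Capitals mark these letters on either strand, so that GATAA on the other strand reads TTATC. The stretches end at the base before the gene starts in the deposited table and are printed in the direction of transcription for Hba-a2 (chr11:32296242-32296488, plus strand), Hbb-bs (chr7:103828097-103828178, minus strand), Hbb-bt (chr7:103813997-103814173, minus strand) and Alas2 (chrX:150547167-150547374, plus strand).
Hba-a2: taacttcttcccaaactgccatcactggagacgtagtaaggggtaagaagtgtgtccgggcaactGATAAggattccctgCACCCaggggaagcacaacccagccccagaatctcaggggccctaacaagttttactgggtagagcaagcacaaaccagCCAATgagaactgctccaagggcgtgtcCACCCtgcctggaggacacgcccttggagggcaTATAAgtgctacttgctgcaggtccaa
Hbb-bs: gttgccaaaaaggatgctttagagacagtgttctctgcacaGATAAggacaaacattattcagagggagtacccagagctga
Hbb-bt: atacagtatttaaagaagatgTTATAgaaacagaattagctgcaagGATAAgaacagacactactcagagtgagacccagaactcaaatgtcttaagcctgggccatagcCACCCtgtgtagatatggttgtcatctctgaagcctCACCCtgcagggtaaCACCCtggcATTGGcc
Alas2: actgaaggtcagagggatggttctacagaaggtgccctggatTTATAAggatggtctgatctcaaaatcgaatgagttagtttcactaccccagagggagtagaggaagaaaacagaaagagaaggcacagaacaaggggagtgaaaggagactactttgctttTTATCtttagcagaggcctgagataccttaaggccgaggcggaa
The Hba-a1 promoter was identical to that of Hba-a2 over the 247 bases that could be aligned. Within the full 250 bases upstream of the RefSeq start, each of the 5 promoters held 1 GATAA, against 22.6% of 32851 promoters with at least 1. Each also held 1 to 3 CACCC (52.0% of all promoters) and 1 or 2 TATAA (22.8%). CCAAT was found 1 to 3 times in the 4 globin promoters (33.8% of all promoters) and 0 times in that of Alas2. In Alas2 a TTATA and a TATAA overlap. These matches describe the letters alone, and no binding was measured.

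Globin transcripts were detected in every liver. The 4 globin genes together took 2967 to 11341 reads per library. Their share of all reads on genes was 0.0229 to 0.0341% in ASK1f/f (median 0.0309%) and 0.0220 to 0.0751% in ASK1+hep (median 0.0472%). The highest share, in ASK1+hep replicate 4, had a 95% exact binomial interval of 0.0737 to 0.0765%, and the lowest, in ASK1+hep replicate 5, of 0.0212 to 0.0228%, so that counting error was small beside the spread between livers. These intervals cover counting error only. By mean FPKM over the 10 livers, Hbb-bs ranked 228 and Hba-a1 254 among all genes, Alas2 968, Hbb-bt 1569, Hba-a2 1773 and Slc4a1 19604.

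**Figure D1:**
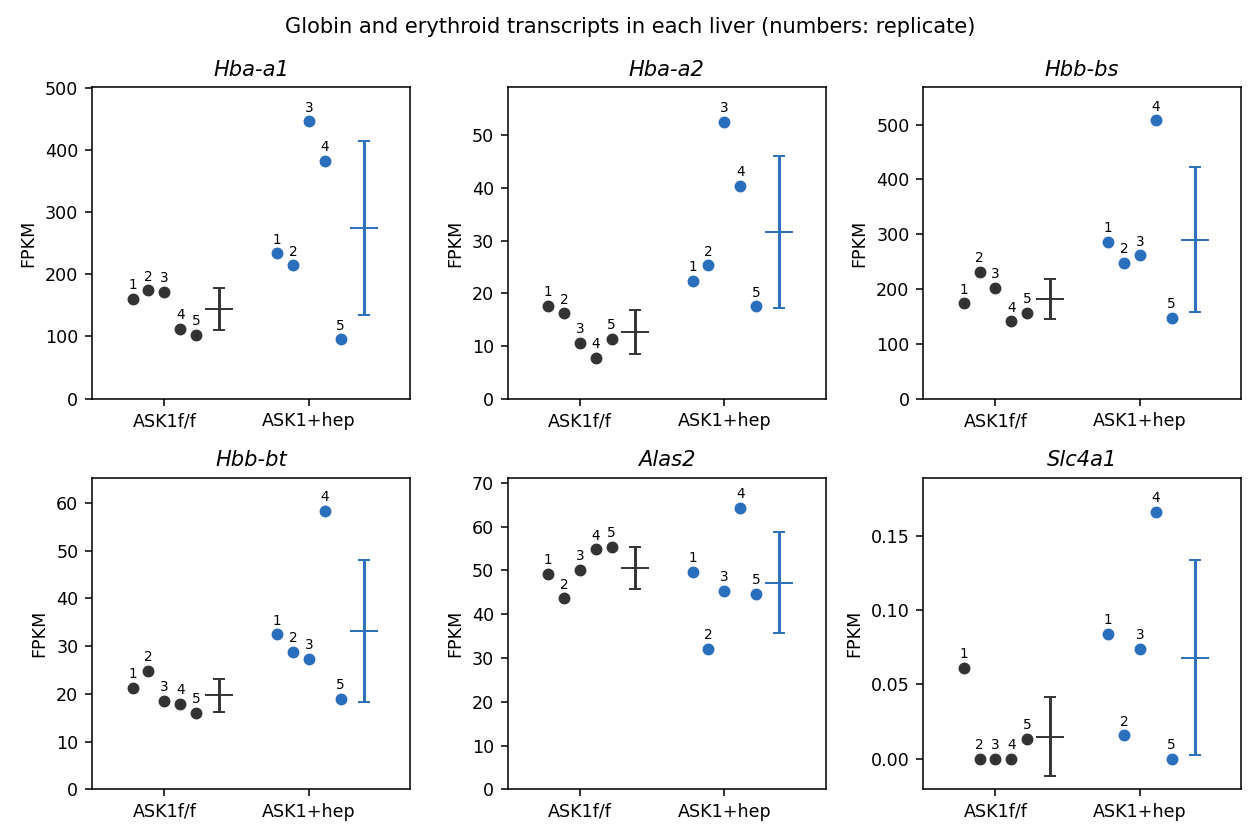
Level of each of the 6 genes in each liver, in FPKM on a linear axis, with numbers for the replicate and bars for the mean and SD (n = 5 per genotype). For each globin gene 4 of the 5 ASK1+hep livers lie above every ASK1f/f liver and replicate 5 does not, whereas the groups overlap for Alas2, and Slc4a1 stays below 0.17 FPKM.

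Both alpha globin genes had higher mean levels in ASK1+hep livers, but neither passed the test across all genes. In ASK1f/f replicates 1 to 5, Hba-a1 stood at 160, 174, 172, 112 and 102 FPKM. In ASK1+hep replicates 1 to 5 it stood at 234, 214, 446, 382 and 95.4 FPKM. The first 4 ASK1+hep livers lay above every ASK1f/f liver, and replicate 5 lay below all of them. Means were 144 ± 34.3 and 274 ± 140 FPKM (SD, n = 5 each), a ratio of 1.90. The log2 fold change on the log2(FPKM + 1) scale was 0.77 ± 0.36 (SE), with a limma adjusted p of 0.812 (unadjusted 0.0530), and the exact two-sided permutation p was 0.103.

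Hba-a2 was the globin gene with the largest ratio between genotypes, at a lower level. It was at 17.6, 16.2, 10.5, 7.68 and 11.4 FPKM in ASK1f/f and at 22.3, 25.3, 52.4, 40.4 and 17.5 FPKM in ASK1+hep replicates 1 to 5. The groups overlapped only in that ASK1+hep replicate 5 lay just below ASK1f/f replicate 1. Means were 12.7 ± 4.12 and 31.6 ± 14.5 FPKM (SD, n = 5 each), a ratio of 2.49. The log2 fold change was 1.20 ± 0.29 (SE), with a 95% interval of 0.55 to 1.84, a limma adjusted p of 0.712 (unadjusted 0.00166, rank 26 of 13306 genes) and an exact permutation p of 0.0159. Between 78 and 482 reads per library stood behind these values, and how reads that also match Hba-a1 were counted is not known.

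The beta globin genes ordered the livers much as Hba-a1 did, at a smaller ratio. Hbb-bs, the most abundant of the 6 genes, was at 174, 232, 203, 141 and 157 FPKM in ASK1f/f and at 286, 248, 262, 508 and 147 FPKM in ASK1+hep replicates 1 to 5. ASK1+hep replicates 1 to 4 again lay above every ASK1f/f liver, with replicate 4 far above the rest, while replicate 5 lay within the ASK1f/f range. Means were 181 ± 36.3 and 290 ± 133 FPKM (SD, n = 5 each). The ratio was 1.60 and the log2 fold change 0.59 ± 0.27 (SE), with a limma adjusted p of 0.812 (unadjusted 0.0545) and an exact permutation p of 0.0794.

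Hbb-bt was at 21.3, 24.8, 18.5, 17.9 and 16.0 FPKM in ASK1f/f and at 32.4, 28.7, 27.3, 58.3 and 18.9 FPKM in ASK1+hep replicates 1 to 5. Its livers fell in nearly the same order as those of Hbb-bs. Means were 19.7 ± 3.45 and 33.1 ± 14.9 FPKM (SD, n = 5 each), a ratio of 1.68. The log2 fold change was 0.64 ± 0.24 (SE), with a 95% interval of 0.11 to 1.17, a limma adjusted p of 0.812 (unadjusted 0.0215) and an exact permutation p of 0.0317.

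These 4 genes were set beside the whole table. The limma comparison called 0 of 13306 genes (0%) at an adjusted p of 0.05, with a lowest adjusted p of 0.355, and 768 genes (5.77%) had an unadjusted p under 0.05, 406 of them (3.05%) higher and 362 (2.72%) lower in ASK1+hep. Among the 5 members tested, 0 were called, and 2, Hba-a2 and Hbb-bt, had such an unadjusted p, both in the higher direction. Of the 5, 4 had a higher mean log2 level in ASK1+hep, against 6392 (48%) of all genes. In 440 genes (3.31%) at least 4 of the 5 ASK1+hep livers lay above every ASK1f/f liver, as in all 4 globin genes. Of all genes 230 (1.73%) had a log2 fold change of 0.5 or more, as the 4 globin genes did, and the median over all genes was -0.0065. The globin genes share livers and, within each pair, sequence, so the 4 are not independent counts.

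The globin difference depended on which ASK1+hep livers were included but kept its direction. Without ASK1+hep replicate 3 the log2 fold changes of Hba-a1, Hba-a2, Hbb-bs and Hbb-bt were 0.55, 0.99, 0.59 and 0.68, and without replicate 5 they were 1.11, 1.37, 0.80 and 0.81, each at a limma adjusted p of 0.383. Replicate 4 had the highest beta globin levels, and without it Hbb-bs and Hbb-bt differed by 0.36 and 0.42. Without ASK1f/f replicate 5, whose Map3k5 level goes against its label, the values were 0.66, 1.18, 0.54 and 0.57. With GC content and gene length removed from each library they were 0.63, 1.05, 0.48 and 0.54. All 5 ASK1+hep livers then lay above every ASK1f/f liver for Hba-a2, as in 0.677% of genes. For Hba-a1 the number of such livers was 4, as at least 4 were in 4.01% of genes. For Hbb-bt and Hbb-bs it was 3 and 2, and the share of all genes at these numbers was not counted.

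**Figure D2:**
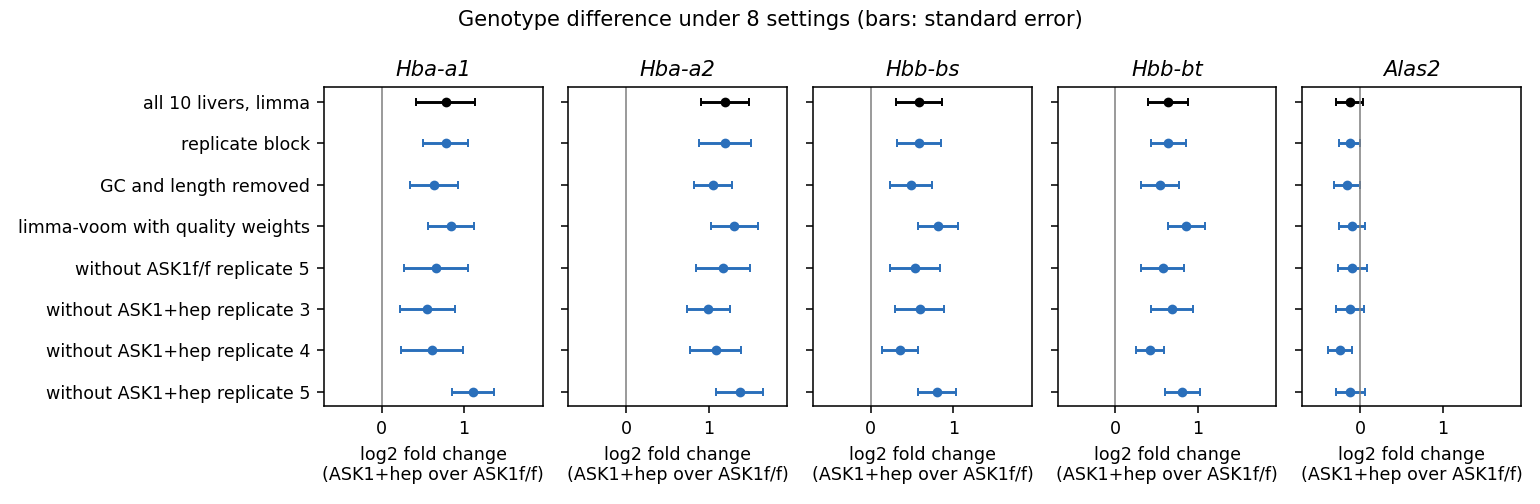
Log2 fold change of ASK1+hep over ASK1f/f livers for the 5 genes tested, with all livers (top) and under 7 alternatives, with bars for the standard error and a grey line at 0. The 4 globin genes lie to the right of 0 under each setting, with their lowest values without ASK1+hep replicate 3 or 4, and Alas2 lies close to 0 throughout.

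The levels of Alas2 overlapped between the genotypes. It was at 49.3, 43.6, 50.2, 54.8 and 55.3 FPKM in ASK1f/f and at 49.7, 32.1, 45.4, 64.3 and 44.6 FPKM in ASK1+hep replicates 1 to 5. The ASK1+hep livers held both the lowest and the highest of the 10 values. Means were 50.6 ± 4.78 and 47.2 ± 11.6 FPKM (SD, n = 5 each). The log2 fold change was -0.13 ± 0.16 (SE), with a 95% interval of -0.48 to 0.22, a limma adjusted p of 0.863 and an exact permutation p of 0.516. Over the 10 livers the coefficient of variation of Alas2 was 17.4%, below the 22.3% of the median gene, while those of Hba-a1, Hba-a2, Hbb-bs and Hbb-bt were 56.4%, 63.9%, 45.9% and 47.0%. Of the genes past the filter, 95.2%, 97.1%, 89.5% and 90.5% had a lower coefficient than these 4 in turn, and 33.4% a lower one than Alas2.

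The ratio of Alas2 to the summed globin level was examined after the values had been seen, as 1 of 4 ratios. It was 0.132, 0.0975, 0.124, 0.197 and 0.193 in ASK1f/f and 0.0864, 0.0623, 0.0577, 0.0650 and 0.160 in ASK1+hep replicates 1 to 5. In 4 ASK1+hep livers it lay below every ASK1f/f liver. The exact permutation p of the log2 difference of -0.85 was 0.0476, and 0.159 after Benjamini-Hochberg adjustment over the 4 ratios, so the difference did not pass. The exact permutation p was 0.0159 without ASK1+hep replicate 5, 0.0794 without ASK1+hep replicate 3 and 0.0952 without ASK1f/f replicate 5.

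Slc4a1 was barely detected. Reads on it numbered 5, 0, 0, 0 and 1 in ASK1f/f replicates 1 to 5 and 7, 1, 5, 12 and 0 in ASK1+hep replicates 1 to 5, which is at most 0.166 FPKM. Over each group this makes 6 reads against 25, and 4 livers held no read. The gene did not pass the filter, and its mean difference of 0.072 on the log2(FPKM + 1) scale had an exact permutation p of 0.0952. ASK1+hep replicate 4, the liver with most globin reads, also had most Slc4a1 reads, and replicate 5, the liver with fewest globin reads, had none. Without replicate 4 the mean difference was 0.040.

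The globin genes varied together from liver to liver. Pearson correlations of log2(FPKM + 1) over the 10 livers were computed for the 15 pairs of members, with permutation p-values and Benjamini-Hochberg adjustment over the pairs. The pair Hba-a1 and Hbb-bs, which lie on different chromosomes and had 0% of 100-base windows in common, had r = 0.86 (permutation p = 0.00066, adjusted 0.00495) and Spearman rho = 0.93 (permutation p = 0.00037, adjusted 0.00555). The correlation was 0.94 without the 2 livers farthest from the median and 0.80 with group means subtracted. Hbb-bs and Hbb-bt, whose transcripts share sequence, had r = 0.96 (permutation p = 0.00018, adjusted 0.0027) and rho = 0.90 (permutation p = 0.00101, adjusted 0.00757), and r was 0.90 without the 2 livers farthest from the median. Hba-a1 and Hba-a2, whose transcripts also share sequence, had r = 0.86 (permutation p = 0.00184, adjusted 0.0092) and rho = 0.76 (permutation p = 0.0154, adjusted 0.0276). Without ASK1+hep replicates 3 and 4 its r was 0.60, so that much of it rested on these livers. The other 3 globin pairs had r between 0.75 and 0.80, and the highest adjusted permutation p among the 6 globin pairs was 0.0199. With group means subtracted, r of these 3 pairs was 0.55 to 0.70, against 0.95 for the beta pair and 0.83 for the alpha pair. Livers were permuted across genotypes, so a genotype difference shared by 2 genes can enter r and its permutation p.

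Slc4a1 correlated with the 4 globin genes at r = 0.73 to 0.86 (adjusted permutation p 0.0122 to 0.0249), from at most 12 reads a library. Without the 2 livers farthest from the median these correlations were 0.51 to 0.65. Alas2 correlated with the globin genes at r = -0.14 to 0.16 (lowest adjusted permutation p 0.745). These values depended on a few livers and on the groups. Without the 2 livers farthest from the median they were -0.72 to -0.37, and with group means subtracted 0.099 to 0.42. With Slc4a1 Alas2 had r = 0.46 (adjusted permutation p 0.253). This r was -0.093 without ASK1+hep replicates 2 and 4, and 0.71 with group means subtracted.

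**Figure D3:**
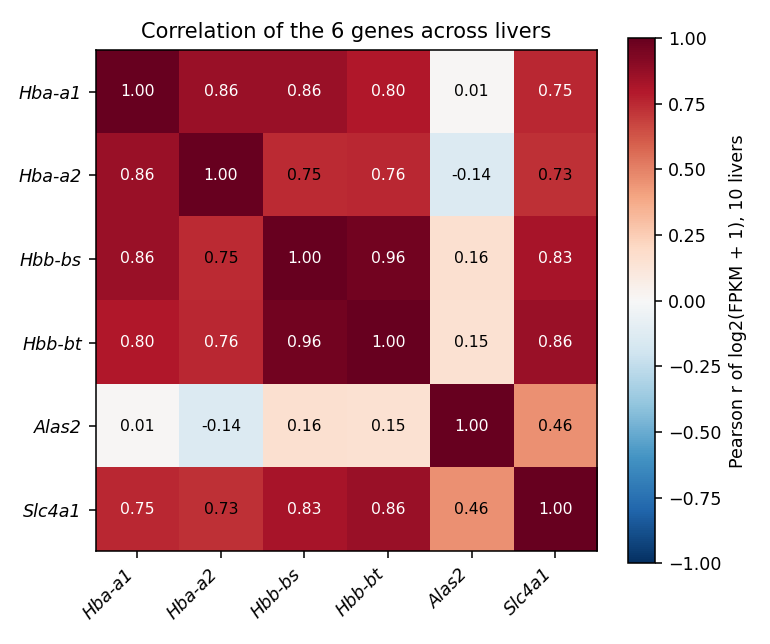
Pearson correlation of log2(FPKM + 1) between each pair of the 6 genes over the 10 livers, from -1 (blue) to 1 (red). The 4 globin genes and Slc4a1 form a block of r = 0.73 to 0.96, and Alas2 stands outside it with r between -0.14 and 0.46.

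Alpha globin stood below beta globin in 9 of the 10 livers. The ratio of summed alpha to summed beta globin FPKM was 0.911, 0.741, 0.823, 0.750 and 0.659 in ASK1f/f and 0.803, 0.867, 1.72, 0.746 and 0.680 in ASK1+hep replicates 1 to 5. ASK1+hep replicate 3 was the exception, with more alpha than beta globin. The genotypes did not differ by more than their spread in this ratio (log2 difference 0.23, exact permutation p = 0.516), and without replicate 3 the log2 difference was -0.0026. Within the pairs, Hba-a1 stood over Hba-a2 by a ratio of 8.99 to 16.3 in ASK1f/f and 5.44 to 10.5 in ASK1+hep (exact permutation p = 0.0794). Hbb-bs stood over Hbb-bt by 7.92 to 10.9 and 7.78 to 9.60 (exact permutation p = 0.452). After adjustment over the 4 ratios these permutation p-values were 0.159 for the alpha pair and 0.516 for the beta pair and for alpha over beta.

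The GC contrast of the libraries moved with the globin levels, and over all 10 livers r was highest for Hba-a1. The transcripts of Hba-a1 and Hba-a2 have a GC content of 57.2% and 56.9%, above the upper quartile of 54.2% of all genes tested, and those of Hbb-bs and Hbb-bt of 51.3% and 50.8%, below it. Over the 10 livers the GC contrast correlated with Hba-a1 at r = 0.84 (permutation p = 0.00084, adjusted 0.00594 over 12 relations) and rho = 0.73 (permutation p = 0.0209, adjusted 0.0977), of which only r passed after adjustment. Without ASK1+hep replicates 3 and 5 it had r = 0.71. For Hba-a2 r was 0.68 (adjusted permutation p 0.088), for Hbb-bs 0.57, for Hbb-bt 0.49 (adjusted permutation p 0.185 for both) and for Alas2 -0.013. For Slc4a1 it was 0.54 (adjusted permutation p 0.185). Without ASK1+hep replicates 3 and 5, r was 0.88 for Hba-a2, 0.74 for Hbb-bs and 0.80 for Hbb-bt. It was then 0.67 for Slc4a1 and -0.075 for Alas2. The contrast of short over long genes correlated with Hba-a1 at r = 0.86 (permutation p = 0.00099, adjusted 0.00594) and rho = 0.71 (permutation p = 0.0268, adjusted 0.0977), and at r = 0.58 without ASK1+hep replicates 3 and 4. The correction for GC content and length lowered the log2 fold change of Hba-a1 from 0.77 to 0.63. The part of base composition in the spread of the globin values beyond this correction was not tested.

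**Figure D4:**
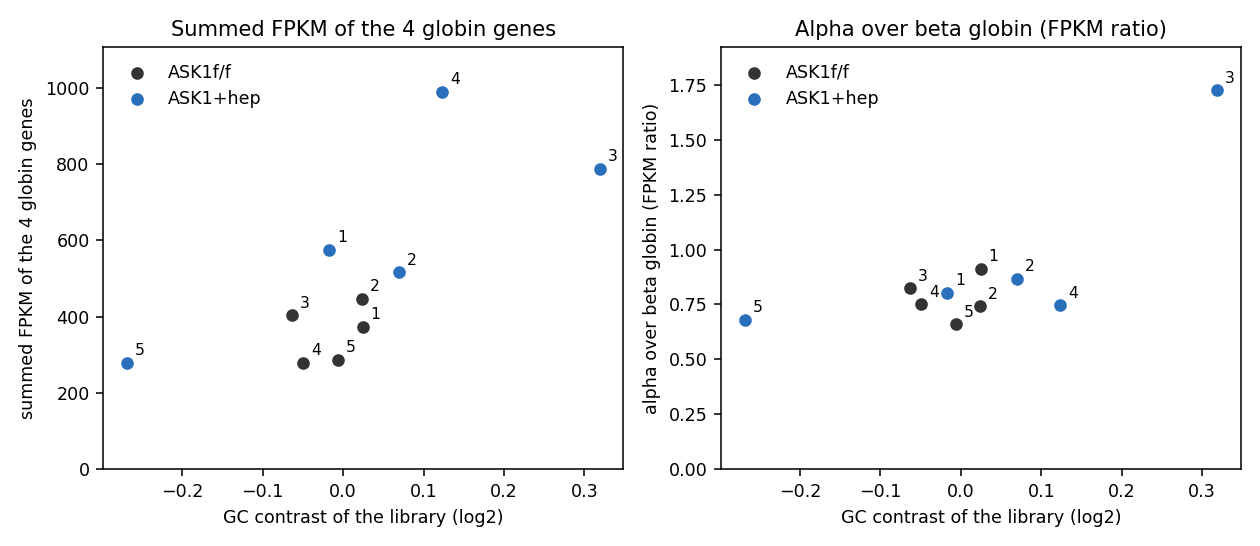
Summed FPKM of the 4 globin genes (left) and the ratio of alpha to beta globin (right) against the GC contrast of the library in log2 units, with a point per liver numbered by replicate. ASK1+hep replicates 3 and 5 lie at the ends of the GC contrast, 0.32 and -0.27, and replicate 3 alone has an alpha to beta ratio above 1, at 1.72, whereas ASK1+hep replicate 4 has the highest globin sum, 988 FPKM, at a GC contrast of 0.12.

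Other genes of red cells were compared as lists, of which 0 genes were called. Of 21 genes of the red cell membrane and of maturation, 20 were in the table under the names used, and 7 passed the filter, 3 higher and 4 lower in ASK1+hep, and their median log2 fold change was -0.0053. Of the 7, 1 had an unadjusted p under 0.05, higher in ASK1+hep. The most abundant, Fech, the last enzyme of haem synthesis, was at 51.9 ± 3.91 and 51.2 ± 10.4 FPKM (SD, n = 5), followed by Epb41, a protein of the membrane skeleton, at 8.27 ± 1.16 and 7.49 ± 1.23 FPKM, and by Slc25a37, the mitochondrial iron importer, at 6.29 ± 1.05 and 6.10 ± 0.939 FPKM. Bpgm, which makes the bisphosphoglycerate that lowers the oxygen affinity of haemoglobin, was at 4.22 ± 0.461 and 4.44 ± 0.931 FPKM. These 4 genes are also expressed outside red cells. Genes closer to red cells were near the floor of detection. Among genes named after their values were seen, Hemgn had 2 reads and Epb42 4 over all 10 livers, and Rhag, Kel and Cldn13 had none.

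Of 12 regulators and embryonic globin genes of red cell progenitors, 7 passed the filter, 5 higher and 2 lower, with a median log2 fold change of 0.042. Of these 7, 2 had an unadjusted p under 0.05, both higher in ASK1+hep. They were Lmo2, a partner of GATA and TAL factors, at a log2 fold change of 0.38 ± 0.14 (SE; unadjusted limma p 0.0208, adjusted 0.812) and Zfpm1 at 0.42 ± 0.18 (SE; unadjusted limma p 0.0377, adjusted 0.812). For Lmo2 4 of 5 ASK1+hep livers lay above every ASK1f/f liver, as at least 4 did in 3.31% of all genes tested. Zfpm1, the cofactor FOG1 of GATA factors, was at 14.4 ± 0.978 and 20.3 ± 6.02 FPKM, Klf1, a master regulator of beta globin transcription, at 4.40 ± 1.37 and 3.15 ± 1.02 FPKM, Lmo2 at 1.90 ± 0.540 and 2.74 ± 0.458 FPKM and Epor, the erythropoietin receptor, at 0.604 ± 0.298 and 0.612 ± 0.238 FPKM (SD, n = 5). Of the genes near 0, also named after their values were seen, Gata1, which drives red cell differentiation, had 1 read in all 10 livers, and Gfi1b and the embryonic globins Hbb-bh1, Hbb-y and Hba-x had none. A count of 0 over all 10 livers allows up to 3 expected reads over these livers together, at 95% confidence. Of 9 other globin genes only Cygb, the cytoglobin of stellate cells, passed the filter, at 3.03 ± 0.595 and 3.48 ± 0.946 FPKM. Of this list, and named for their low values, Hbb-bh2 and Mb had no read, and Ngb and Hbq1a had 40 and 10 reads in all.

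All 8 genes of haem synthesis passed the filter, 5 higher and 3 lower in ASK1+hep, and their median log2 fold change was 0.047, with 0 at an unadjusted p under 0.05. Alas1 varied widely, between 48.1 and 191 FPKM, and its means were 117 ± 55.2 and 106 ± 34.0 FPKM. Alad was at 80.8 ± 8.25 and 108 ± 49.7 FPKM, Fech as above and Urod at 34.0 ± 2.37 and 40.9 ± 11.9 FPKM. Alas2 stood at 0.257 to 0.912 of the Alas1 level in ASK1f/f and at 0.297 to 1.34 in ASK1+hep, so that by FPKM the erythroid enzyme was below the housekeeping enzyme in 9 livers and above it in ASK1+hep replicate 4. All 11 genes of haemoglobin and haem clearance passed as well, 5 higher and 6 lower, with a median of -0.17. Of these 2 had an unadjusted p under 0.05 and are named after their values were seen. Blvrb, a biliverdin reductase, was at 34.9 ± 5.40 and 58.7 ± 27.7 FPKM (unadjusted limma p 0.0287, adjusted 0.812), and Lrp1, the receptor for haem bound to haemopexin, at 44.9 ± 6.13 and 34.5 ± 8.18 FPKM (unadjusted limma p 0.0456, adjusted 0.812; SD, n = 5 in each group). Hp, which binds free haemoglobin, was at 3716 ± 2168 and 2627 ± 757 FPKM, Hpx, which binds haem, at 3625 ± 1833 and 2677 ± 621 FPKM, and the ferritin genes Fth1 and Ftl1 at 1394 ± 113 and 1554 ± 424 FPKM and at 1071 ± 78.4 and 1585 ± 922 FPKM (SD, n = 5 in each group).

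Markers of other blood cells were low in all libraries and showed no call. Platelet markers (10 genes, 5 past the filter, 4 higher and 1 lower, median log2 fold change 0.081) summed to 4.03 to 5.18 FPKM in ASK1f/f and 4.10 to 7.99 FPKM in ASK1+hep, led by Clec1b, Pf4, Itga2b and Ppbp. Neutrophil markers (10 genes, 3 past the filter, median -0.052) summed to 2.53 to 19.0 and 3.35 to 9.55 FPKM, led by S100a9, S100a8, Csf3r and Retnlg. B cell markers (8 genes, 6 past the filter, median 0.042) summed to 6.15 to 12.7 and 2.85 to 14.8 FPKM, led by Ighm. T cell markers (8 genes, 2 past the filter, median 0.079) summed to 1.57 to 2.16 and 1.28 to 2.36 FPKM, led by Cd4. For each of these lists the ranges of the genotypes overlapped, and 0 genes had an unadjusted p under 0.05.

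The liver's own cells were well represented. Hepatocyte markers (10 genes, 5 higher and 5 lower, median log2 fold change 0.075), led by Alb, Apoa1, Ttr and Cyp2e1, summed to 34914 to 46453 FPKM in ASK1f/f and 40586 to 50817 FPKM in ASK1+hep. Of these only Ttr, at a log2 fold change of 0.52 ± 0.24 (SE), had an unadjusted limma p under 0.05, of 0.0472 (adjusted 0.812). Kupffer cell markers (10 genes, 0 higher and 10 lower, median -0.19), led by C1qa, C1qb, Clec4f and Cd5l, summed to 185 to 310 and 117 to 274 FPKM, and 0 of them had an unadjusted p under 0.05. Sinusoidal endothelial markers (8 genes, 2 higher and 6 lower, median -0.084), led by Clec4g, Dnase1l3, Oit3 and Gpr182, summed to 41.1 to 60.4 and 33.2 to 61.6 FPKM, with 0 at such a p. Whether the makeup of the libraries in these cells had a part in the globin values was not tested.

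**Figure D5:**
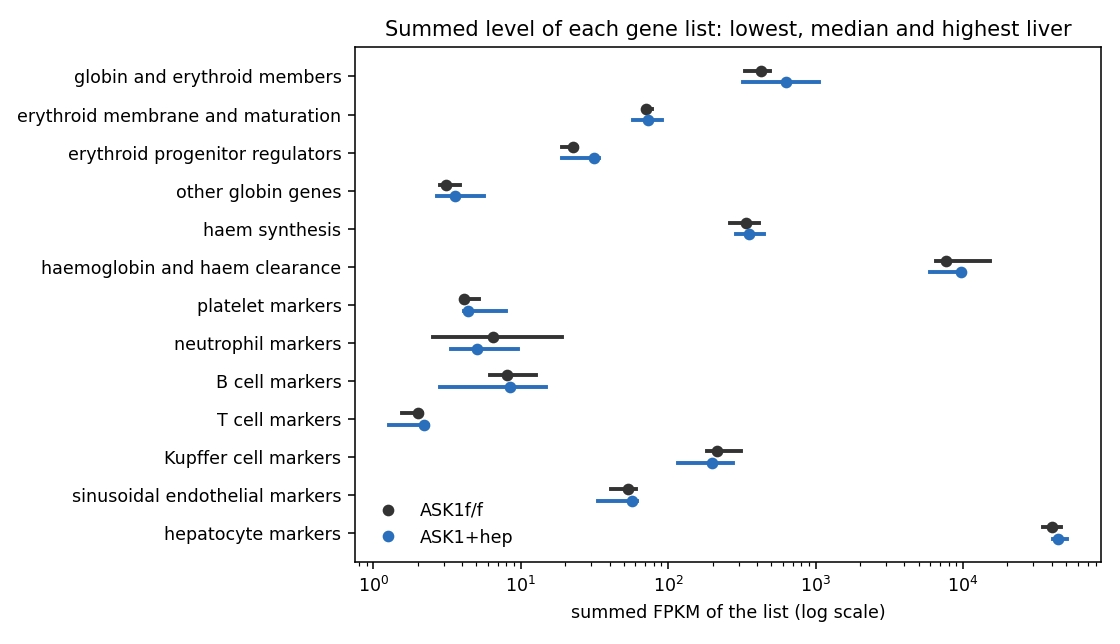
Summed FPKM of each gene list, on a log axis, with the median liver as a point and a line from the lowest to the highest of the 5 livers of each genotype. The 6 globin and erythroid genes summed to 333 to 490 FPKM in ASK1f/f and 324 to 1053 FPKM in ASK1+hep, and the ranges of the genotypes overlap for each list.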

How the data were processed

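Livers of 5 ASK1f/f and 5 ASK1+hep mice were profiled by bulk RNA sequencing. The sample labels gave each liver's genotype and replicate number. Per the study's methods, poly-A RNA was sequenced, reads were cleaned (fastp per the submitters' processing notes), mapped with Hisat2 and counted with FeatureCounts, and the authors deposited FPKM per gene. Tool versions, the genome build and the strand setting are not given in the sources used here. Coordinates are those of the deposited table. They are named as GRCm38 because 98.3% of the 54409 genes found in GENCODE M21, a GRCm38 annotation, and all 6 members had the same chromosome, start and end there, and 0 columns of other samples were left out. FPKM multiplied by gene length gave whole multiples of a single read in 100% of values (tolerance 0.001), so that reads per gene were recovered. The library size implied by FPKM was 0.890 (ASK1+hep replicate 3) to 1.06 (ASK1f/f replicate 1) times the reads on genes. Scaled by all reads instead, the log2 fold changes of Hba-a1, Hba-a2, Hbb-bs and Hbb-bt were 0.70, 1.12, 0.51 and 0.56.

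Genotypes were compared with limma 3.58.1 (R 4.3.3). The scale was log2(FPKM + 1), the prior variance followed mean expression, and p-values were adjusted by Benjamini-Hochberg over 13306 genes. These had 10 or more reads (at the depth of the median library) in 5 or more livers and 15 or more in all. A gene was called at an adjusted p of 0.05 or below. Fold changes on this scale understate those of genes with low FPKM. Single members were also compared by exact two-sided permutation over the 252 splits of the livers, and correlations by 100000 permutations. The main test was not a count test, and limma-voom on recovered reads was run only as an alternative. In a test on simulated data for this comparison (13306 genes, 200 changed by 2 on the log2 scale) 89.5% of the changed genes were recovered, 5.79% of 190 calls were false, and 0 genes were called when none was changed. The simulated spread of a gene was set alike in both genotypes. Recovery of smaller changes, such as the globin log2 fold changes of 0.59 to 1.20, was not tested.

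The members and gene lists were chosen with earlier results of these data known. The rule for named genes was the members, up to 4 genes per list with the highest mean FPKM and the 5 other genes most like the members. Other genes, such as those at or near 0, were named after their values were seen. Some genes of the lists are not reported here. Alternatives were a pseudocount of 0.1, at least 10 reads in every liver or no filter, limma-voom on recovered reads (plain or quality-weighted), the animal tag prefix, the replicate block, other scalings, leaving out each liver, and removal of GC content and length from each liver by splines (5 degrees of freedom).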

Additional observations from a re-analysis of the deposited data

Results flagged for a closer look

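Over 24 sets of 5 livers (the 6 genes, 5 ratios and the summed globin level in each genotype), 4 held a value whose gap to its neighbour exceeded Dixon's 95% critical value of 0.71, where chance alone gives about 1 in 20. Slc4a1 in ASK1f/f replicate 1 stood at 0.0612 FPKM, from 5 reads, with a gap of 0.783 of the group's range. The ratio of alpha to beta globin in ASK1+hep replicate 3 stood at 1.72, with a gap of 0.821, in the library with the highest GC contrast. The ratio of Alas2 to summed globin in ASK1+hep replicate 5 stood at 0.160, with a gap of 0.719, in the library with the lowest GC contrast. The ratio of Alas2 to Alas1 in ASK1+hep replicate 4 stood at 1.34, with a gap of 0.882, where Alas1 was at its lowest of the 10 livers, 48.1 FPKM, and Alas2 at its highest, 64.3 FPKM.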

How the results depend on the processing

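The direction of all 6 members held under each alternative that gave a value, and no member passed the threshold under any of them. The log2 fold change ranged over the 21 alternatives from 0.55 to 1.11 for Hba-a1, 0.99 to 1.37 for Hba-a2, 0.36 to 0.81 for Hbb-bs, 0.42 to 0.86 for Hbb-bt and -0.24 to -0.00013 (without ASK1+hep replicate 2) for Alas2, with lowest adjusted p-values of 0.383, 0.355, 0.383, 0.383 and 0.721. For Slc4a1 it was 0.040 to 0.095 without single livers, and 0.49 with a pseudocount of 0.1. The number of genes called was 0 in the limma comparison and 1 with limma-voom and quality weights (Fgf21, named after its values were seen), and 0 to 1 without single livers, the 1 being Fgf21 without ASK1+hep replicate 5. An unadjusted p under 0.05 was reached by 768 genes, by 1222 with no filter, and by 557 to 1724 without single livers, of which 1178 without ASK1+hep replicate 1 and 1724 without ASK1+hep replicate 5. With the replicate block 0 genes were called and 880 had an unadjusted p under 0.05, and 999 had one with the block and GC content and length removed, a correction chosen after seeing the data. The block moved no member past the threshold. Same-numbered livers correlated at 0.021 to 0.17 in their deviations from the group means (mean 0.11, against -0.027 for other pairs), with 2 of 5 pairs over 0.1, and 4 of 5 ASK1f/f and 2 of 5 ASK1+hep livers correlated best with their own number, and same-numbered mice carried consecutive animal tags in 4 of 5 pairs. The labels do not say that a number marks a shared litter, so the numbers were not taken as pairs. Taken as pairs, Hba-a2 and Hbb-bt were higher in ASK1+hep in 5 of 5 pairs (exact sign-flip permutation p 0.0625, the smallest that 5 pairs allow) and Hba-a1 and Hbb-bs in 4 of 5 (exact sign-flip permutation p 0.125), and under the block the unadjusted limma p-values of Hba-a1, Hba-a2, Hbb-bs and Hbb-bt were 0.0212, 0.00574, 0.0616 and 0.0165 (adjusted 0.719 to 0.727). For Slc4a1 no value was computed under the block, limma-voom, the tag prefix or the GC correction, since it did not pass the filter. With 5 livers a group and an ASK1+hep spread of about 45 to 51% of the mean in each globin gene, depth was not the limit for globin genes, but at 0 to 12 reads it was for Slc4a1.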

Other observations

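The 5 other genes past the filter whose log2(FPKM + 1) followed the mean of the 6 members most closely over the 10 livers were Wrap53 (r = 0.92), Adrm1 (r = 0.92), Tinf2 (r = 0.91), Ciao1 (r = 0.91) and Gm11353 (r = 0.89), out of 13301 genes, of which 4 had r of 0.9 or more. With group means subtracted these correlations were 0.89, 0.87, 0.84, 0.91 and 0.81. Wrap53 and Tinf2 encode proteins of telomerase and telomere maintenance, Adrm1 a ubiquitin receptor of the proteasome and Ciao1 a protein of cytosolic iron-sulphur cluster assembly. Their mean levels were 4.84, 21.5, 2.48, 13.3 and 1.94 FPKM. The GC content of their transcripts was 56.3%, 55.4%, 48.0%, 44.9% and 52.3%. These are descriptions of the 10 libraries, chosen as the highest of many.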
